A study of Homo sapiens with 6 samples.

Results

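The genes described here are 40 human genes of the G1/S transition and of DNA replication, chosen as a list of names, and each was found under its own symbol among the 24000 gene entries of the deposited table. They were measured by RNA-seq in 6 tumors of PC-3, an androgen-independent human prostate cancer cell line, grown as xenografts in nude mice. In the study, 3 tumors came from mice given vehicle and 3 from mice given WCE, a standardized extract of the herb *Wedelia chinensis*. The labels give a treatment of 10 weeks for all 6 tumors and no dose, and the study's methods describe male athymic mice injected in the anterior prostate with PC-3 cells carrying a luciferase gene. All tumors are of the same cell line, and the host cells in them are of the mouse, whose reads cannot be told apart from human reads in the table.

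Before a cell copies its DNA, the origin recognition complex, CDC6 and CDT1 load the MCM2 to MCM7 helicase onto origins, and geminin (GMNN) blocks further loading once S phase has begun. Cyclin E with CDK2, and CDC7 with DBF4, then start the helicase together with CDC45 and the GINS complex, after which DNA polymerases alpha, delta and epsilon copy the strands with the sliding clamp PCNA and its loader RFC. Most of these genes are transcribed late in G1 by E2F factors once the retinoblastoma protein has been inactivated, so their transcripts are widely used as a readout of cycling cells. The comparison asks whether tumors grown under WCE held other levels of these transcripts than tumors grown under vehicle.

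The promoters of these genes were searched for the letters of known cell-cycle motifs. A window of 250 bases before to 50 bases after the first listed RefSeq start (build GRCh38.p14) was held for 37 of the 40 genes, and 19 of these (51.4%) contained TTTCGCGC, TTTGGCGC or TTTCCCGC on either strand, 3 spellings of the E2F motif, the reverse complements of which can overlap them. Of all 27305 promoters of the same length, 2.79% held such a match. Among other genes of the replication machinery the share was 9 of 33 (27.3%), among other G1/S regulators 4 of 23 (17.4%) and among G2/M and mitotic genes 3 of 29 (10.3%). TTTGAA, the spelling used for the CHR element of mitotic promoters, was present in 1 of the 37 windows, in 20 of the 29 windows of G2/M genes (69.0%) and in 15.4% of all promoters. The CCAAT box, searched as CCAAT on either strand, was present in 20 of 37 windows (54.1%), against 35.7% of all promoters. A match is a run of letters and not a measured binding site.

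The following stretches are shown because they hold the E2F letters upstream of the clamp, of helicase, GINS and polymerase subunits and of E2F1 itself, whose levels are described below. PCNA has more than 1 listed start, and the first was used. They are written 5′ to 3′ on the strand of the gene, with the E2F letters in capitals, and lie at chr20:5126642-5126701 (minus strand), chr2:135876556-135876615 (minus), chrX:24693761-24693820 (plus), chr7:100101566-100101595 (minus), chr16:85688967-85688996 (minus) and chr20:33686387-33686416 (minus) of GRCh38.p14.
PCNA: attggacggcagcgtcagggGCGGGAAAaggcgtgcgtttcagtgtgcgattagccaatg
MCM6: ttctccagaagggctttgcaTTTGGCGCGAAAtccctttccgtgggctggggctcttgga
POLA1: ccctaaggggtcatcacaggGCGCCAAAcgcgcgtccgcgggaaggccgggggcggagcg
MCM7: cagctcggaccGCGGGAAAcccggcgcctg
GINS2: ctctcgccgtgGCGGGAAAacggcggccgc
E2F1: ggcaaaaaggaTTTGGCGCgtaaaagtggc
In MCM6 the capitals cover a match on each strand that share bases. The capitals begin 59 bases before the start in PCNA, 137 in POLA1, 187 in MCM7, 31 in GINS2 and 20 in E2F1, and POLE holds GCGCCAAA beginning 18 bases before its start.

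The values are FPKM, fragment numbers divided by transcript length and by the size of the library, so that levels of different genes can be compared. Because the deposited table gives no read counts, depth is known only in relative terms from the steps between low values. With vehicle replicate 3 at 100%, relative depth was between 64.8% and 85.2% in 4 tumors and 25.0% in the shallowest, which was WCE replicate 1. This tumor was nearly identical to vehicle replicate 3, with a median absolute log2 difference of 0.028 over 1915 entries with a mean of at least 50 FPKM, where every other pair of tumors differed by 0.095 to 0.247. The number of entries detected in this WCE-treated tumor and undetected in that vehicle-treated tumor was 0. Over the members tested, these tumors differed by a median of 0.038 and by at most 0.13 on the log2(FPKM + 1) scale. They carry different treatments, so results are given with all 6 tumors as labeled and again with these tumors left out. Of the genes that PC-3 is known to lack or barely to express, KLK3 was listed at 0 in every tumor and CTNNA1 was below 0.12 FPKM. The epithelial keratins KRT8 and KRT18 were at 192 to 322 FPKM, with log2 fold changes of 0.05 and 0.10 under WCE. EPCAM, an adhesion protein of epithelial cells and the remaining gene of that marker list, was at 305, 249.9 and 185 FPKM under vehicle and 180.0, 138 and 123 FPKM under WCE, without overlap (log2 fold change −0.73 ± 0.21 SE, limma unadjusted p = 0.00889, adjusted p = 0.623), and its part in the results below was not tested. The gap in EPCAM was between vehicle replicate 3 and WCE replicate 1, the nearly identical tumors.

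In these tumors 39 of the 40 genes were at 1 FPKM or more in every tumor, and the exception was E2F2. Over the 39 genes with a mean of at least 0.5 FPKM, which were tested, mean levels ran from 2.79 FPKM for CLSPN, an adaptor of the replication checkpoint, to 140 FPKM for PCNA, with a median of 15.5 FPKM. The median over all 13287 entries tested was 10.7 FPKM, and the members lay between the 19.6th and the 95.2nd percentile of these entries. After PCNA the highest were TK1, thymidine kinase, at 87.7 FPKM, MCM7 at 64.4 FPKM and RRM2, the small subunit of ribonucleotide reductase, at 52.8 FPKM. The coefficient of variation over the 6 tumors was 4.76% for POLD1 and 27.6% for MCM10, with a median of 13.1%.

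**Figure D1:**
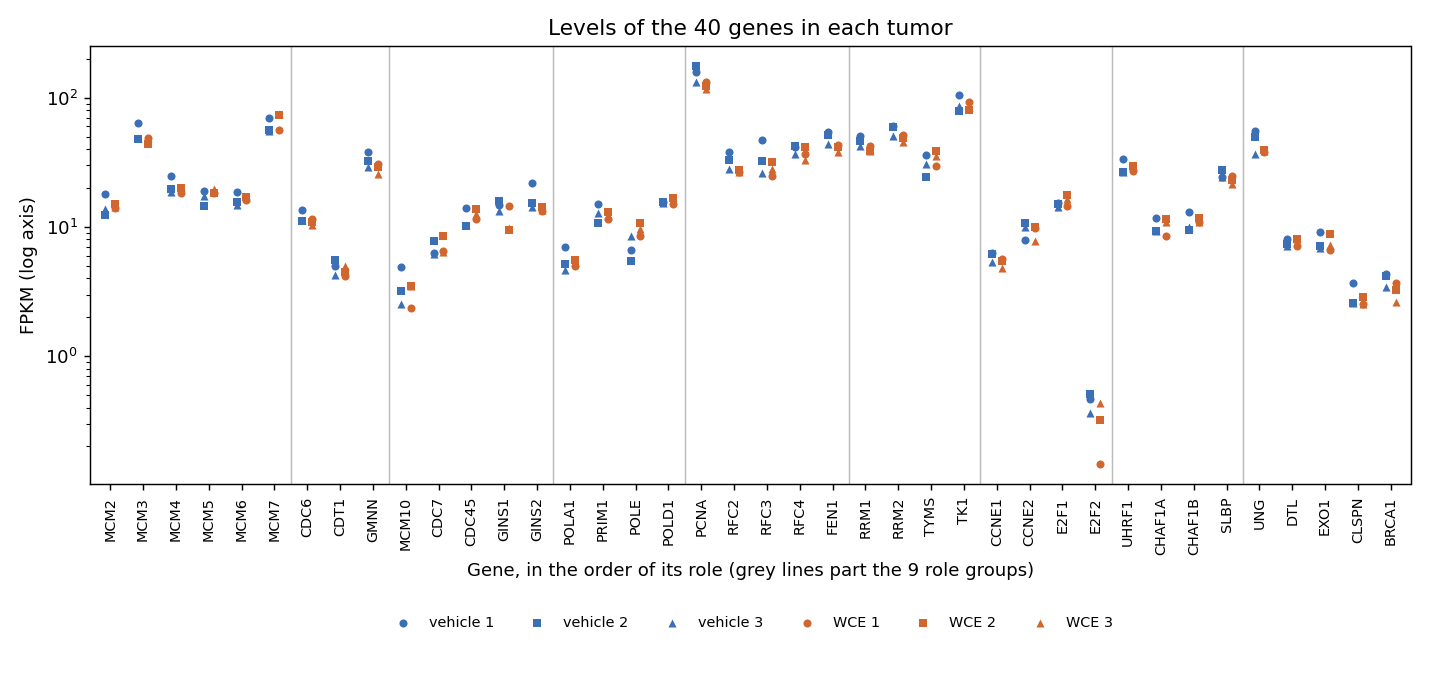
FPKM on a log axis for each of the 40 genes, in the order of their roles, with a point for each of the 3 vehicle-treated (blue) and 3 WCE-treated (orange) tumors. PCNA was highest at a mean of 140 FPKM and E2F2 lowest at 0.373 FPKM, and for most genes the points of both groups overlap.

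Compared with vehicle-treated tumors, WCE-treated tumors had a lower mean of log2(FPKM + 1) in 27 of the 39 tested genes (69.2%) and a higher mean in 12. Of all tested entries 51.4% had a lower mean. The median log2 fold change of the members was −0.10, against −0.01 over all tested entries. In bulk tumors fewer cycling cells and less RNA for each cell cannot be told apart. Without vehicle replicate 1 the median of the members was 0.03, and with any other single tumor left out it was negative. In the limma test on log2(FPKM + 1), 3 of them (7.69%) passed 0.05 before adjustment, PCNA and FEN1 lower and POLE higher, against 7.1% of all tested entries (3.33% lower and 3.78% higher). After Benjamini-Hochberg adjustment over all 13287 entries 0 of the 39 passed 0.05, the lowest adjusted p being 0.623, and 0.00753% of all entries passed. The share of members called was thus near the background. It rested on which tumors were included, with 0 members called when vehicle replicate 2, WCE replicate 2 or WCE replicate 3 was left out (background 2.61%, 1.77% and 1.65%), 1 without vehicle replicate 1 (background 3.18%), 4 without WCE replicate 1 (15.3%) and 9 without vehicle replicate 3 (13.3%). When limma weighted the tumors by their estimated quality, 13 of the 39 (33.3%) were called, 9 lower and 4 higher, and 0 after adjustment. Of all tested entries 24.1% were then called before adjustment, 12.2% lower and 11.8% higher. With these weights the median log2 fold change of the members was −0.05, with 18 genes higher and 21 lower. For 28 of the 39 genes the 95% interval of the log2 fold change lay within 0.5 of 0 on either side, and the median distance from the estimate to the end of its interval was 0.30. Because 1 was added to each FPKM before the logarithm, fold changes of low genes are understated.

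**Figure D2:**
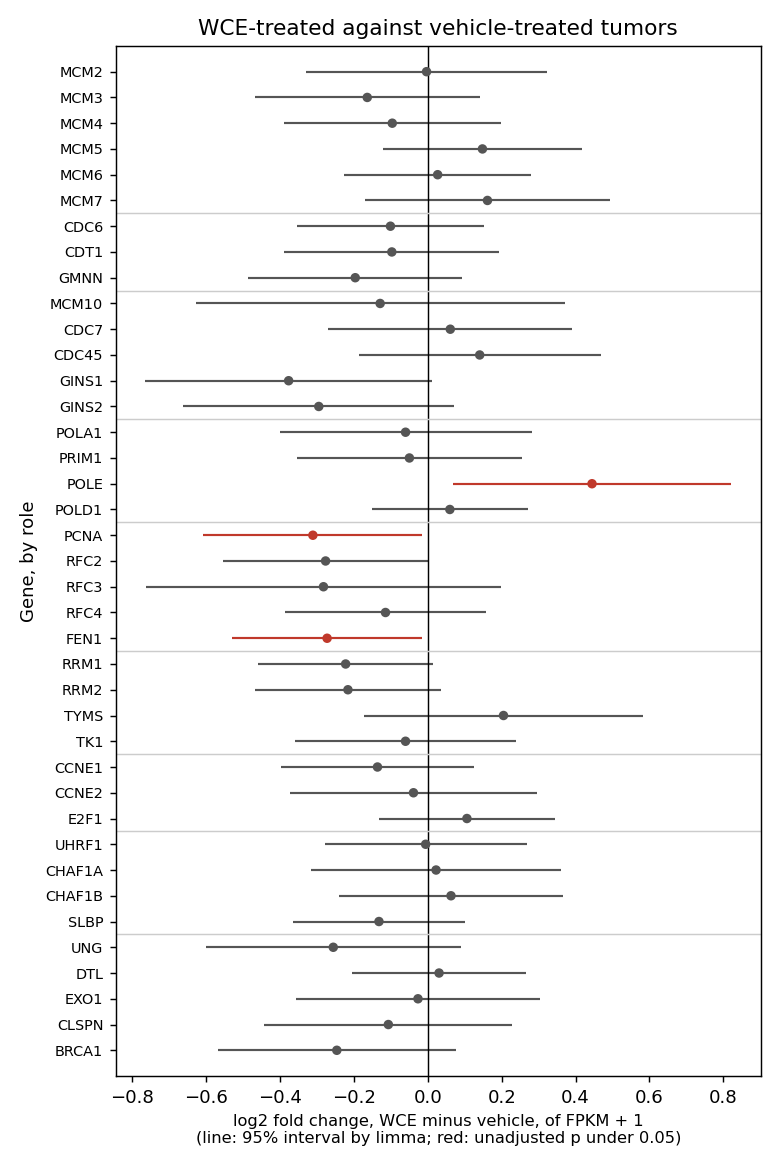
Log2 fold change of FPKM + 1, WCE-treated minus vehicle-treated tumors, for the 39 tested genes by role, with the 95% interval by limma (n = 3 tumors in each group) and genes at an unadjusted p under 0.05 in red. POLE, at 0.44, is the highest and GINS1, at −0.38, the lowest, and every interval other than those of PCNA, FEN1 and POLE reaches 0.

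The clamp, its loader and the flap nuclease held both of the genes called lower. All 5 members of this group had a lower mean under WCE (51.4% of all tested entries). PCNA, the ring that tethers polymerases to DNA, was at 158, 176 and 132 FPKM in vehicle-treated and at 134, 123 and 116 FPKM in WCE-treated tumors. Vehicle replicates 1 and 2 stood above all WCE-treated tumors, whereas vehicle replicate 3 was just below WCE replicate 1, so the groups overlapped. The means were 156 ± 22.4 and 124 ± 8.57 FPKM (SD, n = 3 each), and limma put the log2 fold change at −0.31 ± 0.13 (SE), with unadjusted p = 0.0421 and adjusted p = 0.623. PCNA is listed at chr20:5095599-5107268 of hg19, the human build of the submitters' notes, a locus shared with the antisense entry PCNA-AS1. When vehicle replicate 1 or 2 or WCE replicate 2 or 3 was left out in turn, its limma p lay between 0.0857 and 0.139, and without either of the nearly identical tumors it stayed below 0.05.

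FEN1, the nuclease that trims the flaps of Okazaki fragments, is listed at chr11:61560109-61564714. Its level was 54.2, 51.4 and 44.0 FPKM in vehicle-treated and 43.4, 41.6 and 38.0 FPKM in WCE-treated tumors. The groups did not overlap, but the gap was between vehicle replicate 3 and WCE replicate 1, the nearly identical tumors. The log2 fold change was −0.27 ± 0.11 (SE), for which limma gave unadjusted p = 0.0406 and adjusted p = 0.623. Leaving out vehicle replicate 1 or 2 or WCE replicate 2 or 3 moved this p to between 0.0787 and 0.14. Of the loader subunits, RFC2 was at 37.8, 32.9 and 28.2 FPKM under vehicle and 26.4, 27.7 and 26.4 FPKM under WCE, again without overlap (log2 fold change −0.28 ± 0.12 SE, limma unadjusted p = 0.0509). RFC3 had its highest value, 47.3 FPKM, in vehicle replicate 1 and lay between 24.9 and 32.4 FPKM in the other 5 tumors. RFC4, whose listed locus is shared with 5 other entries, had a log2 fold change of −0.11.

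Among the polymerases, POLE was the 1 member called higher and POLD1 was the steadiest of all members. POLE, the catalytic subunit of the leading-strand polymerase epsilon, is listed at chr12:133200348-133263945. It was at 6.66, 5.41 and 8.48 FPKM in vehicle-treated and at 8.46, 10.7 and 9.56 FPKM in WCE-treated tumors. WCE replicates 2 and 3 were above every vehicle-treated tumor, whereas WCE replicate 1 was just below vehicle replicate 3. The means were 6.85 ± 1.55 and 9.59 ± 1.14 FPKM (SD, n = 3 each), and limma put the log2 fold change at 0.44 ± 0.16 (SE), with unadjusted p = 0.0265 and adjusted p = 0.623. With vehicle replicate 1 or 2 or WCE replicate 2 or 3 left out, the limma p was between 0.0621 and 0.0908. Its partner subunit POLE2, which is no member, had a log2 fold change of −0.04. POLD1, the catalytic subunit of polymerase delta, was at 15.6, 15.6 and 15.3 FPKM under vehicle and 15.1, 16.6 and 17.0 FPKM under WCE, and its interval ran from −0.15 to 0.27. POLA1 and PRIM1, of the polymerase alpha and primase complex that lays down primers, had log2 fold changes of −0.06 and −0.05. The ratio of POLD1 to POLE was 1.81 to 2.89 in the vehicle-treated and 1.55 to 1.79 in the WCE-treated tumors. The gap between these ranges was that between vehicle replicate 3 (1.81) and WCE replicate 1 (1.79), the nearly identical tumors.

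The 6 helicase subunits form a ring with each subunit once, yet their transcripts differed in level. MCM7 was at 3.87 to 5.21 times and MCM3 at 2.89 to 3.89 times the FPKM of MCM2 in the same tumor, whereas MCM4, MCM5 and MCM6 were at 1.04 to 1.59 times. None of the 6 passed 0.05 by limma. MCM3 was at 63.5, 47.8 and 48.5 FPKM in vehicle-treated and 49.1, 43.6 and 48.6 FPKM in WCE-treated tumors, and only vehicle replicate 1 stood apart. MCM7 was at 69.4, 56.8 and 55.7 FPKM under vehicle and 56.6, 73.0 and 74.6 FPKM under WCE. WCE replicates 2 and 3 thus exceeded every vehicle-treated tumor in MCM7, and over all tumors the log2 fold change was 0.16 ± 0.14 (SE, limma unadjusted p = 0.291). The listed locus of MCM7 is shared with 6 other entries, among them AP4M1, TAF6 and the microRNA MIR93. MCM2 had the smallest difference, with a log2 fold change of −0.0035 and an interval from −0.33 to 0.32.

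The licensing factors had lower means under WCE in all 3 genes (51.4% of all tested entries), none of them called. Geminin was the highest of them, at 37.8, 32.2 and 29.0 FPKM in vehicle-treated and 30.8, 29.2 and 25.8 FPKM in WCE-treated tumors, with overlapping groups and a log2 fold change of −0.20 ± 0.12 (SE, limma unadjusted p = 0.155). Its transcript was at 5.17 to 7.56 times the FPKM of CDT1, the loading factor it inhibits. CDC6 and CDT1 each had a log2 fold change of −0.10.

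The origin-firing genes showed the lowest fold change of all members, in GINS1. GINS1, a subunit of the 4-part GINS complex of the active helicase, was at 14.9, 16.0 and 13.2 FPKM under vehicle, and at 14.5 FPKM in WCE replicate 1 but 9.39 and 9.85 FPKM in WCE replicates 2 and 3. Its log2 fold change was −0.38 ± 0.17 (SE, limma unadjusted p = 0.0555), and with 1 tumor left out it ranged from −0.56 without WCE replicate 1 (limma unadjusted p = 0.00247, adjusted p = 0.154) to −0.27 without WCE replicate 2 (limma unadjusted p = 0.178). GINS2, another subunit, was at 22.0, 15.4 and 14.3 FPKM in vehicle-treated and 13.3, 14.2 and 13.5 FPKM in WCE-treated tumors. The groups of GINS2 did not overlap, with a gap far smaller than the spread of the vehicle-treated tumors (log2 fold change −0.30 ± 0.16 SE, limma unadjusted p = 0.1). The kinase CDC7 (0.06) and the helicase cofactor CDC45 (0.14) had positive log2 fold changes, and MCM10, a scaffold of the same step, had −0.13. MCM10 varied most, from 2.34 FPKM in WCE replicate 1 to 4.93 FPKM in vehicle replicate 1.

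Of the enzymes of nucleotide supply, both subunits of ribonucleotide reductase were lower under WCE without passing the test. RRM1, the large subunit, was at 50.9, 46.3 and 42.4 FPKM under vehicle and 42.1, 38.5 and 38.5 FPKM under WCE, without overlap (log2 fold change −0.22 ± 0.10 SE, limma unadjusted p = 0.0619). As in FEN1, the gap was between vehicle replicate 3 and WCE replicate 1, the nearly identical tumors. RRM2 had the same log2 fold change of −0.22, and its ratio to RRM1 stayed between 1.18 and 1.29 in the 6 tumors. TK1, the salvage kinase, was at 105, 78.3 and 86.2 FPKM under vehicle and 91.9, 80.4 and 84.5 FPKM under WCE, all within the vehicle range (log2 fold change −0.06, and 0.06 without vehicle replicate 1). Thymidylate synthase, TYMS, had a positive log2 fold change of 0.20, from a locus that the table shares with 3 other entries including the antisense gene ENOSF1.

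None of the cyclins and E2F factors among the members was called. Cyclin E1, CCNE1, was at 6.30, 6.14 and 5.32 FPKM in vehicle-treated and 5.68, 5.41 and 4.80 FPKM in WCE-treated tumors (log2 fold change −0.14 ± 0.11 SE), and cyclin E2, CCNE2, had −0.04. The activator E2F1 was at 15.3, 15.0 and 14.3 FPKM under vehicle and 14.5, 17.5 and 16.4 FPKM under WCE (log2 fold change 0.11 ± 0.10 SE, limma unadjusted p = 0.332). E2F2 was listed at 0.464, 0.507 and 0.365 FPKM under vehicle and 0.146, 0.321 and 0.432 FPKM under WCE, too low to be tested. E2F1 was thus at 29.7 to 99.5 times the FPKM of E2F2.

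Among the genes of chromatin copying, UHRF1, which guides maintenance of DNA methylation, was at 33.5, 26.6 and 26.4 FPKM under vehicle and 26.9, 29.4 and 29.5 FPKM under WCE, and its log2 fold change of −0.01, whose sign changed with the scaling, had an interval from −0.28 to 0.27. SLBP, which binds the stem-loop of histone messages, was at 24.4, 27.6 and 24.4 FPKM under vehicle and 24.8, 23.0 and 21.6 FPKM under WCE (log2 fold change −0.13). The histone chaperone subunits CHAF1A and CHAF1B had 0.02 and 0.06. In the checkpoint and repair group, the uracil glycosylase UNG was at 55.3, 49.8 and 37.0 FPKM under vehicle and 38.1, 39.7 and 39.0 FPKM under WCE, so that the lowest and the highest values were both of vehicle-treated tumors (log2 fold change −0.26 ± 0.15 SE, limma unadjusted p = 0.125). BRCA1, of homologous recombination, had −0.25, CLSPN −0.11, the nuclease EXO1 −0.03 and DTL, which directs the destruction of CDT1, 0.03.

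In 4 of the 39 genes, GINS2, RFC2, FEN1 and RRM1, all WCE-treated tumors lay below all vehicle-treated tumors, and in 0 they lay above (6.37% of all tested entries). These 4 are 10.3% of the members, against 12.8% of all tested entries in either direction and 6.4% in the lower direction. In FEN1 and RRM1 the gap was between the nearly identical tumors. Without WCE replicate 1 the count was 15 (background 37.8%), of which 5 were higher (19.2%) and 10 lower (18.6%). Without vehicle replicate 3 it was also 15 (33.0%), 1 higher (15.1%) and 14 lower (17.9%). Without vehicle replicate 1 it was 10 (20.4%), 6 higher (10.5%) and 4 lower (9.88%). Without vehicle replicate 2, WCE replicate 2 or WCE replicate 3 it was 5, 5 and 4 (background 18.9%, 17.7% and 17.3%). An exact permutation test of 3 tumors against 3 cannot give a two-sided p below 0.1.

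Within the vehicle group the levels of these genes differed by tumor. In 25 of the 39 genes (64.1%) the highest value was in vehicle replicate 1, where 28.4% of all tested entries had theirs, and in 0 genes was it the lowest tumor, against 24.4% of all tested entries. Its median difference from the mean of the 6 tumors was 0.22 on the log2(FPKM + 1) scale, while the other 5 tumors lay between −0.07 and 0.03. The 5 tumors included both treatments, with WCE replicate 2 at 0.03 and vehicle replicate 2 at −0.03. RFC3, GINS2 and MCM10 were the members in which vehicle replicate 1 stood farthest above the mean, and POLE, CCNE2 and CDC7 were those farthest below it. Among the 18 tested genes with E2F letters in the promoter window 10 were highest in vehicle replicate 1, and among the 18 without them 14 were.

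**Figure D3:**
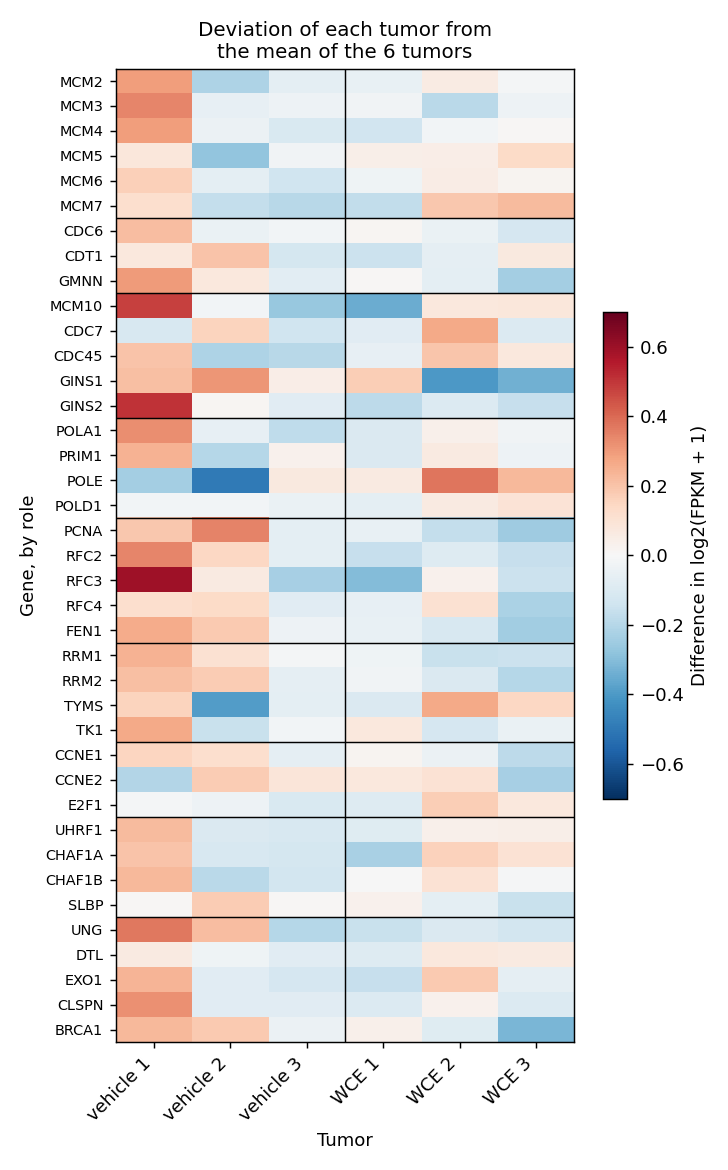
Difference of each tumor from the mean of the 6 tumors in log2(FPKM + 1), for the 39 tested genes by role (rows) and the 6 tumors (columns), red where higher and blue where lower. The column of vehicle replicate 1 is red for most genes, with a median of 0.22, and the columns of vehicle replicate 3 and WCE replicate 1 look alike.

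The same tumor was highest for other genes of the cell cycle. Vehicle replicate 1 held the highest value in 24 of 42 other replication genes (57.1%) and in 28 of 35 G2/M and mitotic genes (80.0%), with median differences of 0.15 and 0.36, but in 9 of 30 other tested G1/S regulators (30.0%), with −0.01. MKI67, the source of the Ki-67 antigen, was at 17.1 FPKM in vehicle replicate 1 and between 9.32 and 13.7 FPKM in the others. Over the 1915 entries named above, pairs of tumors without vehicle replicate 1 had median absolute log2 differences of 0.028 to 0.199. Vehicle replicate 1 differed from the other tumors by 0.196 to 0.247, so these ranges overlapped slightly. Its relative depth was 64.8%. Of the markers of host cells, its summed level was the lowest of the 6 tumors for endothelial genes (1.25 FPKM, against 3.21 to 7.63) and for myeloid genes (25.8 FPKM, against 31.3 to 44.7), the latter carried by CD68 alone (25.3 FPKM in this tumor), and for fibroblast and pericyte genes it was 42.1 FPKM, within the range of 12.8 to 56.4. In these lists 4 of 6, 5 of 6 and 3 of 6 genes had means below 0.5 FPKM, and CDH5, VWF, CSF1R, ITGAM and PDGFRB were below 0.15 FPKM in every tumor. The endothelial sum of vehicle replicate 1 was carried by PECAM1 (0.860 FPKM) and KDR (0.216 FPKM), both lowest there. The highest endothelial sum, in WCE replicate 3, held 5.12 FPKM of KDR. Of the endothelial genes below 0.5 FPKM, TEK was also lowest in vehicle replicate 1, VWF was highest, and CDH5 and CLDN5 were neither. Of the other myeloid genes, PTPRC and CD14 were lowest in this tumor, and CSF1R, ITGAM and LYZ were not. The fibroblast and pericyte sum of this tumor was mostly COL1A1 (29.5 FPKM) and COL3A1 (9.15 FPKM). LUM (3.15 FPKM) and PDGFRB were highest in it. Whether these human entries measure the mouse host cells was not tested. The part of these differences in the results was not tested.

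**Figure D4:**
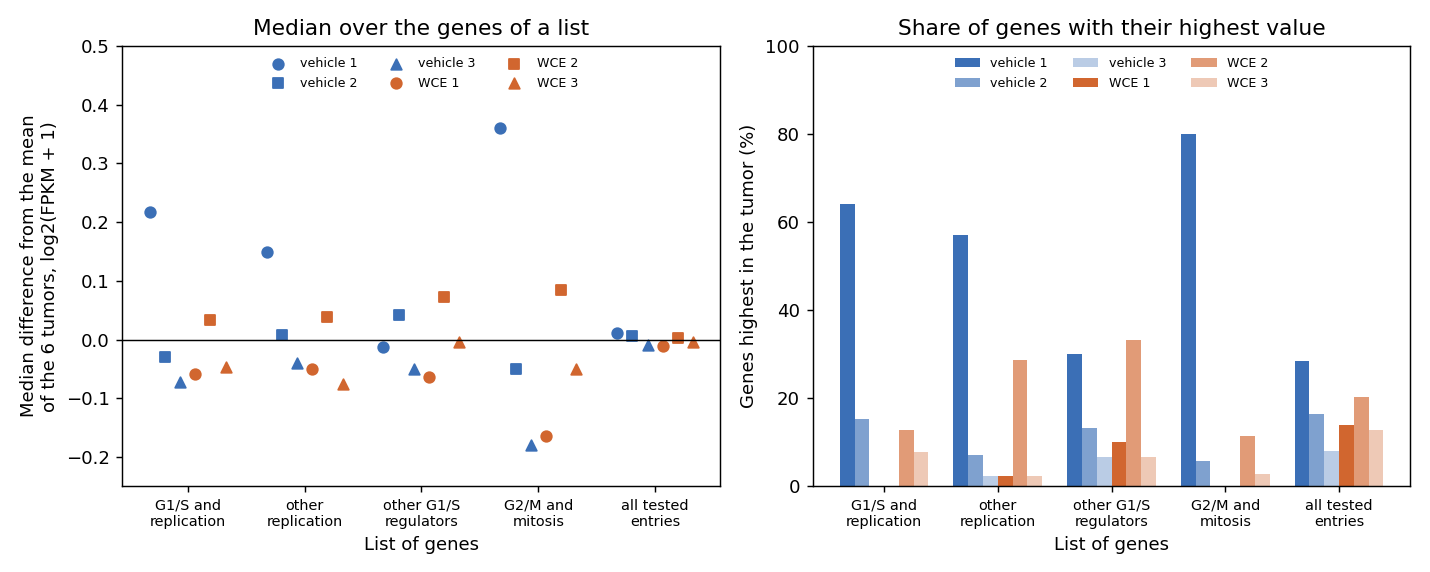
Left, the median over each list of genes of the difference from the mean of the 6 tumors in log2(FPKM + 1), and right, the share of the genes of each list that had their highest value in a tumor (%), for vehicle-treated (blue) and WCE-treated (orange) tumors. Vehicle replicate 1 held the highest value in 64.1% of the G1/S and replication genes and 80.0% of the G2/M and mitotic genes, against 28.4% of all tested entries.

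The rest of the pathway gave a similar count. Of 42 other genes of the replication machinery, 3 (7.14%) passed 0.05 by limma before adjustment, all of them lower under WCE, and the median log2 fold change was −0.08. Without vehicle replicate 1 this median was −0.0080, with 20 genes higher, 22 lower and 0 called. The 3 genes called with all 6 tumors were ORC6, a subunit of the origin recognition complex, at 20.8, 20.1 and 17.0 FPKM under vehicle and 17.5, 13.4 and 11.2 FPKM under WCE (log2 fold change −0.45 ± 0.17 SE), the histone chaperone ASF1B (−0.30) and RPA3, of the complex that coats unwound DNA (−0.30). Of 30 other G1/S regulators, 2 were called. CDKN1B, the p27 inhibitor of cyclin E with CDK2, was higher, at 13.1, 14.2 and 14.8 FPKM under vehicle and 14.6, 19.9 and 19.7 FPKM under WCE (log2 fold change 0.33 ± 0.14 SE, limma unadjusted p = 0.0432), and CDKN2D, an inhibitor of CDK4 and CDK6, was lower (−0.27). Of 35 G2/M and mitotic genes, 1 was called, the spindle checkpoint gene MAD2L1 (−0.39), and their median log2 fold change was −0.10, but 0.07 without vehicle replicate 1, when 22 of the 35 were higher under WCE, and 0.0063 with limma array weights. After adjustment 0 of these genes passed, and without WCE replicate 3 the count before adjustment was also 0 in each of these lists.

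Without the nearly identical tumors, vehicle replicate 3 and WCE replicate 1, 10 of the 39 genes (25.6%) passed 0.05 by limma before adjustment, against 18.4% of all tested entries, and 0 after it, the lowest adjusted p being 0.173. POLE was higher, with a log2 fold change of 0.67, and 9 genes were lower, which are GINS1 (−0.63), PCNA (−0.48), BRCA1 (−0.41), UNG (−0.41), FEN1 (−0.40), RFC2 (−0.37), RRM2 (−0.34), GMNN (−0.34) and RRM1 (−0.33). In the lower direction 9.59% and in the higher direction 8.84% of all tested entries were called, and 0.0376% passed after adjustment. In 21 members the tumors of these groups did not overlap (53.5% of all tested entries), 16 of them lower under WCE (27.8%). The median log2 fold change of the members was −0.13. All 5 genes of the clamp group were lower in both WCE-treated than in both vehicle-treated tumors, and 3 of them were called. All 3 licensing genes were also lower without overlap, and 1 of them was called. Of the 6 helicase genes, 1 did not overlap, being higher under WCE, and 0 were called. In this comparison of 2 tumors with 2, vehicle replicate 1 is 1 of the 2 vehicle-treated tumors.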

How the data were processed

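Stranded mRNA libraries were made from the RNA of 6 PC-3 xenografts and sequenced. The authors deposited FPKM values for 24000 gene entries laid out as Cufflinks writes them, with a column for each tumor. The submitters' processing notes name TopHat2 2.0.13, Cufflinks and the builds hg19 and mm10 without their roles, and the annotation and the counting of strand are not given in the sources used here. Columns were matched by the sample descriptions, and the replicate numbers are those of the titles. Replicates are individual tumors per the labels, which do not say that each came from its own mouse, so p-values measure the spread between tumors as labeled. Whether the nearly identical vehicle replicate 3 and WCE replicate 1 are independent tumors was not tested. The p-values of every fit that holds both take them as separate tumors. Whether mouse reads were removed is not given in the sources used here.

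The gene list and the lists compared with it were chosen with earlier results of these data known. On the log2(FPKM + 1) scale, limma 3.58.1 (R 4.3.3) tested the 13287 entries whose mean was at least 0.5 FPKM, two-sided, using a trend of variance with mean and Benjamini-Hochberg adjustment over all of them. Locus starts were counted from 1. The step was tested on simulated data. Members given in every tumor are the highest and the most different of each of 9 role groups and those with an unadjusted p under 0.05. From the other lists, genes under that p are named, and if none, the lowest. RFC2, RFC3, RRM2, E2F2, MCM10, MKI67, POLE2 and the genes named with 2 tumors left out were chosen after their values were seen. Promoters came from RefSeq tables, read in Python 3.11.15. Alternatives were the pseudocount, filter, scaling, trend, weights, a replicate block and tumors left out. Some markers of the cell line are not reported here.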

Additional observations from a re-analysis of the deposited data

How the results depend on the processing

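Under the other pseudocount, the scalings and array weights, the 16 members given in every tumor kept the sign of their log2 fold change, except UHRF1. The value for UHRF1 was 0.0039 with upper-quartile scaling, 0.0143 with quantile normalization and 0.0854 with limma array weights, and −0.063 to 0.10 with 1 tumor left out. The filter, trend and block do not enter these fold changes in this design, so under them no sign could change. TK1 ranged from −0.15 to 0.057 with 1 tumor left out. With array weights, lowest for vehicle replicate 1 (0.408) and highest for WCE replicate 3 (4.00), 13 members, 11 other replication genes, 8 other G1/S regulators, 5 G2/M genes and 3201 of all entries passed 0.05 before adjustment. Without vehicle replicate 3 and WCE replicate 1 these counts were 10, 8, 6, 3 and 2449, and 5 entries passed after adjustment; 21 members then did not overlap between groups, against 53.5% of all entries. With no filter on low values, 1 other G1/S regulator, 0 G2/M genes (limma) and, after adjustment, 0 entries passed, with 1051 before it. Leaving out 1 tumor gave 0 to 9 members called, 4 to 15 not overlapping and a median log2 fold change of −0.16 to 0.026. It gave 0 to 8 other replication genes (median −0.13 to −0.0080), 0 to 4 other G1/S regulators (−0.032 to 0.056), 0 to 9 G2/M genes (−0.17 to 0.068), and 219 to 2033 of all entries, 1 to 7 of them after adjustment. PCNA lost its p under 0.05 with no filter (0.0581) and with quantile normalization (0.058), POLE with no filter (0.0551) and FEN1 without the variance trend (0.0511), all by limma. The cause of each change was not tested.

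The deviations of same-numbered tumors from their group means correlated at −0.24, 0.16 and −0.09. By this measure the nearly identical vehicle replicate 3 and WCE replicate 1 reached only 0.36. It therefore cannot decide whether the replicate numbers pair the tumors. With the replicate block, 3 members, 5 other replication genes, 2 G2/M genes and 1049 of all entries passed 0.05 before adjustment. Absolute depth is unknown, the lower relative depth of WCE replicate 1 limits its low values, and the intervals of the most variable members were wide, from −0.63 to 0.37 for MCM10 and from −0.76 to 0.20 for RFC3.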
